A study of Mus musculus with 15 samples.

Results

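The 10 genes described here mark the vascular endothelium or belong to its growth factor pathways: Kdr, Flt1, Vegfa, Tek, Tie1, Pecam1, Cdh5, Emcn, Ehd3 and Nos3. They were taken by name, through the RefSeq accession of each probe, and all 10 were among the 16055 genes tested. Together they were read by 13 probes, 2 each for Kdr, Vegfa and Nos3 and 1 for each of the others, and every one of these probes was well above background on all 15 arrays. RNA came from frozen whole kidneys of male C57/BJ mice that had surgery at 6 weeks of age and were killed 20 weeks later. The groups were high-fat diet with removal of the left kidney (uninephrectomy; HFD UNX, 4 arrays), high-fat diet with sham surgery (HFD sham, 3 arrays), low-fat chow with uninephrectomy (LFD UNX, 4 arrays) and low-fat chow with sham surgery (LFD sham, 4 arrays). The labels name a separate mouse for each sample and 6 mice for each group, so 3 or 4 of each group were measured.

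In kidney, endothelial cells line the glomerular capillaries, the capillaries around the tubules and the larger vessels. VEGF-A, secreted mainly by podocytes and tubule cells, acts on the receptors VEGFR2 (Kdr) and VEGFR1 (Flt1) of neighbouring endothelium, and glomerular capillaries depend on it. The angiopoietin receptor Tie2 (Tek) and its partner Tie1 form the second receptor system of endothelium, which holds vessels in a quiescent state. Nitric oxide made by endothelial nitric oxide synthase (Nos3) relaxes vessel walls.

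A level below is the log2 of an array's processed signal minus that array's 75th percentile over probes, so a level of 0 is the signal at that percentile. Differences are log2 differences between group means with their standard error (SE), from limma fitted to all 15 arrays. A gene was called at a Benjamini-Hochberg adjusted p under 0.05 over all genes tested. Levels of different genes come from different probes and were not set against each other. Where the arrays of groups are said to lie apart or to overlap, the share of all genes that did so is not given. In whole-kidney RNA, fewer endothelial cells and less RNA per cell cannot be told apart. The headers give the high-fat arrays a first scan day and slides 1 and 2, which both hold HFD UNX and HFD sham arrays. LFD UNX arrays (slide 4) and LFD sham arrays (slide 3) had a later scan day. Diet effects and scan day cannot be told apart, nor can the chow surgery groups and their slides. High-fat arrays had 65.7 to 73.4% of spots well above background and low-fat arrays 60.5 to 65.6%, so this share also differed with diet and scan day. The 75th percentile signal was 669 to 1913 on 14 arrays and 3275 on HFD sham 3. The high-fat arrays of slide 1 (HFD UNX 1 and 2, HFD sham 1) stood apart from those of slide 2 (HFD UNX 3 and 4, HFD sham 2 and 3): 31% of genes were called between these slides. Kidney tubule markers were present, with all 8 proximal tubule genes on the list measured and Miox, an oxygenase of that segment, at a mean level of 8.29.

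Promoter windows of 7 of the 10 genes were in the RefSeq table (GRCm38.p6), and the 250 bases before the start are printed for Tie1, whose diet difference was the largest of the 10 genes in both diet comparisons, and for Ehd3 and Vegfa, which were not called in either. These 3 windows lie wholly before the annotated gene. Those of Kdr and Flt1 lie wholly inside it, and those of Tek (203 of 250 bases) and Emcn (16 of 250 bases) partly. The windows of Kdr, Flt1, Tek and Emcn are not printed. Capitals mark GGAA or its reverse complement TTCC, the core letters bound by ETS factors, a family with endothelial regulators such as Erg and Fli1. The windows are on GRCm38.p6 at chr4:118489850-118490099 (Tie1, minus strand), chr17:73804591-73804840 (Ehd3, plus strand) and chr17:46032378-46032627 (Vegfa, minus strand).
Tie1: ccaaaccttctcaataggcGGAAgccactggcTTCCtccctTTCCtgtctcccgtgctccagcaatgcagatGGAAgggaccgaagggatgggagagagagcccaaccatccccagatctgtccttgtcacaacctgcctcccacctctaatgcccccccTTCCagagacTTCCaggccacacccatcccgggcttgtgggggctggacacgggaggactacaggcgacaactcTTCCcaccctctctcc
Ehd3: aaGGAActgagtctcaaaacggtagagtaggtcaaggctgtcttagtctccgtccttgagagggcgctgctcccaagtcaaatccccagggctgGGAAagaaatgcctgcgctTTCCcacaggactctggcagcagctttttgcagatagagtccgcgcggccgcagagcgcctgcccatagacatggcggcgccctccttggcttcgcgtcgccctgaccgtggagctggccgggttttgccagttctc
Vegfa: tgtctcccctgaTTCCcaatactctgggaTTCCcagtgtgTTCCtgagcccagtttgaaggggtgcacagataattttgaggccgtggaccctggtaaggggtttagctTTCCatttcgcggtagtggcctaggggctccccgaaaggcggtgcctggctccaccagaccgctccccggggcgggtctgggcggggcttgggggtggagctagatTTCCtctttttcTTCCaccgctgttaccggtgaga

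GGAA stood 7 times in the Tie1 window, 6 times in that of Vegfa, 4 times each in those of Kdr, Flt1 and Emcn, 3 times in that of Ehd3 and 2 times in that of Tek, counting both strands. Of 32851 RefSeq windows of this length, 93.4% held it at least once, with a median count of 3. The longer GGAAG (or CTTCC), which overlaps GGAA, stood 6 times in the Tie1 window, 3 times in that of Flt1 and 2 times in that of Emcn. It stood 1 time each in those of Kdr and Vegfa, and not in those of Tek or Ehd3. It was in 64.1% of all windows, with a median count of 1. ACGTG (or CACGT), the core letters of the hypoxia response element, was in 16.6% of all windows and in none of the 7. These counts describe letters in short windows and are not binding sites.

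With a high-fat diet, the members moved in both directions. In sham mice the level of Flt1 was 1.40-fold lower and that of Nos3, by its brighter probe, 1.47-fold lower on HFD than on LFD. In mice with 1 kidney, Tie1 was 2.25-fold higher and Cdh5 1.42-fold higher on HFD than on LFD. Tie1 was also 2.25-fold higher on HFD in sham mice, but was not called there (limma adjusted p = 0.0634). In mice with 1 kidney its log2 difference was 1.90 with only the high-fat arrays of slide 1 and 0.44 with only those of slide 2. Kdr, the main VEGF receptor, and its ligand Vegfa were not called in either diet comparison by the brighter probe. Uninephrectomy gave no called member on either diet.

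Between HFD sham and LFD sham kidneys, 2 of the 10 genes were called, both lower, where 13.9% of all genes were called (6.48% higher and 7.41% lower). The members' median difference was 0.11, beside -0.02 over all genes, with 7 above 0 and 3 below. Between HFD UNX and LFD UNX kidneys 2 of 10 were called, both higher, where 14.2% of all genes were called (7.67% higher and 6.52% lower). Here the median of the members was 0.33, beside -0.01 over all genes, again with 7 above 0 and 3 below. Both counts are close to the share of all genes and are no result about the 10 genes as a set. When the replicate number was a block within the high-fat groups, which it pairs, 4 members were called in the HFD UNX against LFD UNX comparison: Tie1, Cdh5, Pecam1 (adjusted p = 0.017) and Ehd3 (adjusted p = 0.0428), where 27.5% of all genes were called. In that fit 3 members were called between HFD sham and LFD sham, with Tie1 added (adjusted p = 0.00133), where 22.7% of all genes were called.

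**Figure D1:**
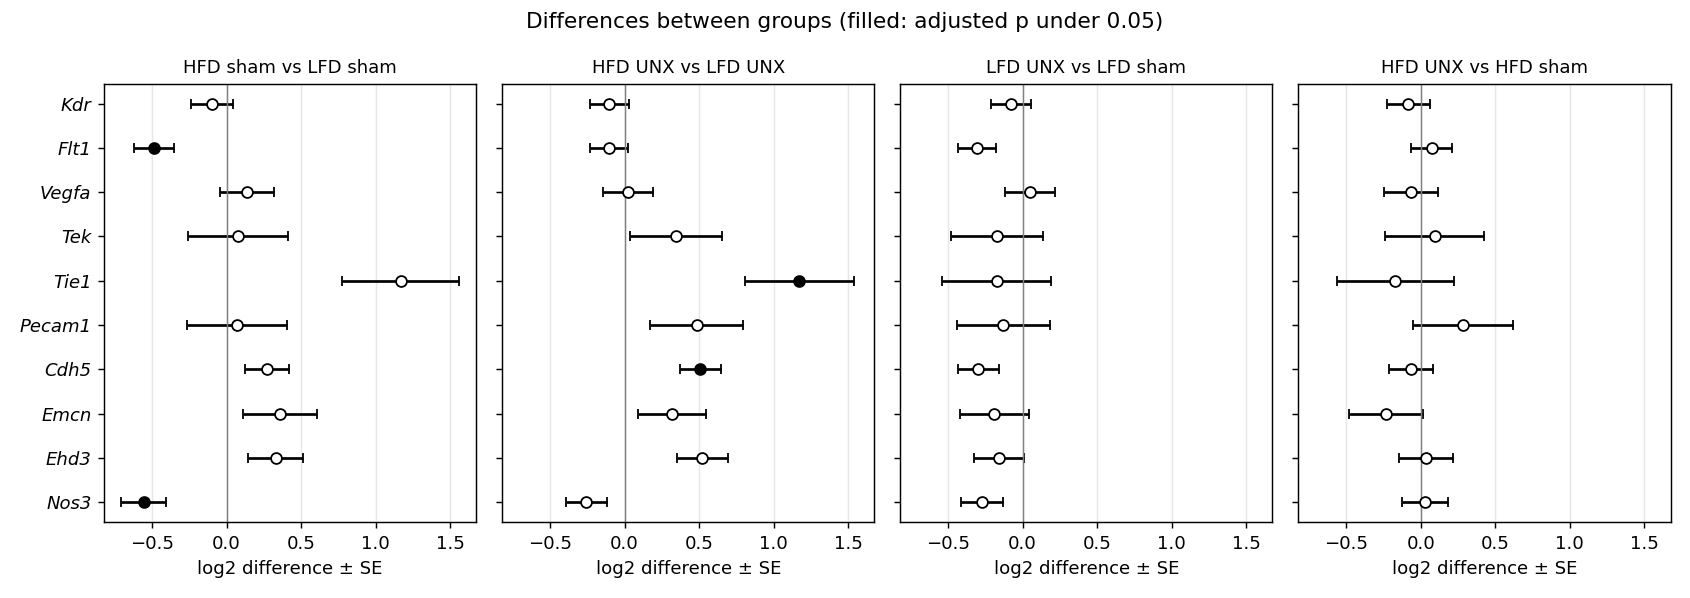
Log2 difference between 2 groups (x axis, first group minus second) for the 10 genes, with bars for the SE and filled points for genes with an adjusted p under 0.05. Flt1 (-0.49) and Nos3 (-0.56) are filled in the sham diet comparison and Tie1 (1.17) and Cdh5 (0.51) in the uninephrectomy diet comparison, while no point is filled in the surgery comparisons.

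Flt1 encodes VEGFR1, a receptor that binds VEGF-A tightly and, in its soluble form, holds it away from VEGFR2. Its level was 2.57, 2.32, 2.94 and 2.55 in HFD UNX kidneys and 2.51, 2.61 and 2.44 in HFD sham kidneys. On chow it was 2.65, 2.73, 2.68 and 2.76 in LFD UNX kidneys and 3.18, 2.92, 2.97 and 2.96 in LFD sham kidneys. All 3 HFD sham arrays lay below all 4 LFD sham arrays, and all 4 LFD UNX arrays also lay below all 4 LFD sham arrays. Flt1 fell by 0.49 on the log2 scale in HFD sham against LFD sham kidneys (SE 0.14, limma adjusted p = 0.0319). With only the high-fat arrays of slide 1 (1 HFD sham array, assumed to vary like the others) the difference was -0.49, and with only those of slide 2 it was -0.48, each against the same low-fat arrays, which lie on other slides. The call was lost when slide was a random block (limma adjusted p = 0.267) and with a replicate block over all groups (adjusted p = 0.0603). It was also lost without any 1 of the 7 arrays compared (HFD sham 1, 2 or 3, or LFD sham 1, 2, 3 or 4), with adjusted p up to 0.0839 and a difference of -0.53 to -0.43. In HFD UNX against LFD UNX kidneys the difference was -0.11 (SE 0.13, adjusted p = 0.612), with overlapping arrays. In order, the group means were highest in LFD sham (3.01 ± 0.12), then LFD UNX (2.70 ± 0.05), HFD UNX (2.60 ± 0.26) and HFD sham (2.52 ± 0.09; SD), and neighbours after LFD sham overlapped.

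Kdr encodes VEGFR2, the receptor that carries most VEGF-A signalling in endothelium. The brighter of its probes read 1.62, 1.18, 1.67 and 1.43 in HFD UNX kidneys and 1.35, 1.63 and 1.68 in HFD sham kidneys. In LFD UNX kidneys it read 1.39, 1.78, 1.55 and 1.58, and in LFD sham kidneys 1.76, 1.62, 1.66 and 1.57. All 4 groups overlapped. Differences were -0.10 (SE 0.14, adjusted p = 0.696) for HFD sham against LFD sham and -0.10 (SE 0.13, adjusted p = 0.650) for HFD UNX against LFD UNX. The group means, 1.47 to 1.65, lay closer together than the arrays of a high-fat group.

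Vegfa encodes the ligand. Its brighter probe (RefSeq NM_001025250) read 2.69, 2.84, 2.50 and 2.82 in HFD UNX kidneys and 2.55, 2.53 and 3.26 in HFD sham kidneys. It read 2.70, 2.83, 2.88 and 2.34 in LFD UNX kidneys and 2.71, 2.58, 2.64 and 2.63 in LFD sham kidneys. The groups overlapped, and the value farthest from the rest was that of HFD sham 3, the array with the highest 75th percentile signal. The differences were 0.14 (SE 0.18, adjusted p = 0.660) in HFD sham against LFD sham and 0.03 (SE 0.17, adjusted p = 0.938) in HFD UNX against LFD UNX kidneys. Means of this probe spanned 2.64 ± 0.05 in LFD sham to 2.78 ± 0.42 in HFD sham kidneys (SD), less than the spread of the HFD sham arrays.

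The second Vegfa probe, designed to another transcript (RefSeq NM_001025257), gave another picture. It read 1.20, 1.08, 0.67 and 0.06 in HFD UNX kidneys and 1.08, 1.04 and 0.37 in HFD sham kidneys, against 1.43, 1.36, 1.39 and 1.48 in LFD UNX and 1.84, 1.49, 1.50 and 1.53 in LFD sham kidneys. All 7 high-fat arrays lay below all 8 low-fat arrays, and how many of all probes lie apart in this way is not given. The lowest readings were those of HFD UNX 3 and 4 and HFD sham 3, all on slide 2. HFD sham 2, also on slide 2, read 1.04, near the high-fat arrays of slide 1. Among all 28244 probes its difference was -0.76 (SE 0.24, adjusted p = 0.0592) in HFD sham against LFD sham and -0.66 (SE 0.22, adjusted p = 0.0697) in HFD UNX against LFD UNX kidneys. When it stood for Vegfa among the 16055 genes, the difference of -0.76 in sham mice had an adjusted p of 0.0493. The change of the second probe minus that of the first was -0.90 in sham mice and -0.69 in mice with 1 kidney. Each had an exact permutation p of 0.0286, the smallest these group sizes allow, and a Benjamini-Hochberg p of 0.0857 over the 12 probe comparisons made. Which transcripts the probes read was not tested.

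**Figure D2:**
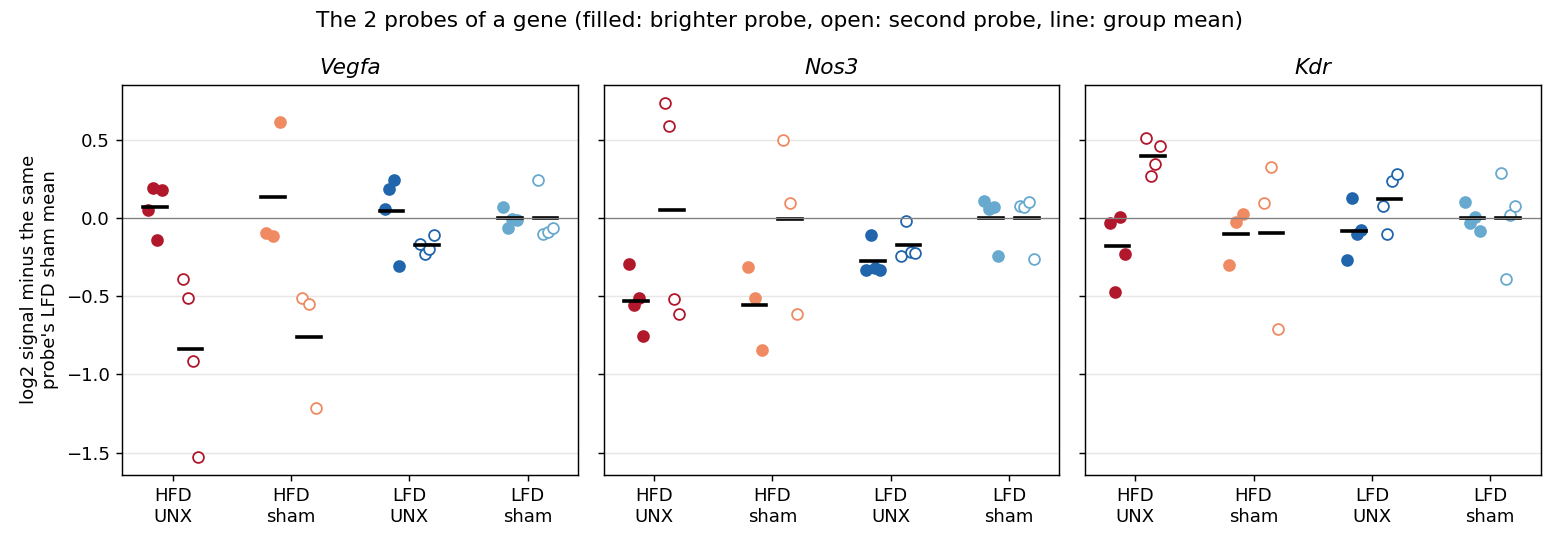
Log2 signal minus the same probe's mean in LFD sham kidneys (y axis) for both probes of Vegfa, Nos3 and Kdr in the 4 groups, with filled points for the brighter probe, open points for the second and lines for group means. The open Vegfa points of both high-fat groups lie below all low-fat points of that probe, while the filled ones overlap between groups.

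For Kdr, the second probe read 1.61, 1.37, 1.45 and 1.56 in HFD UNX kidneys and 1.20, 1.42 and 0.39 in HFD sham kidneys. In LFD UNX kidneys it read 1.18, 0.99, 1.33 and 1.38, and in LFD sham kidneys 1.38, 0.70, 1.12 and 1.18. Its difference was 0.28 (SE 0.21, adjusted p = 0.409) for HFD UNX against LFD UNX, opposite in sign to the first probe, and neither was called.

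The other members of the pathway list (VEGF and angiopoietin ligands, co-receptors and signalling partners, 14 of 15 measured) had 1 called gene in HFD sham against LFD sham and 2 in HFD UNX against LFD UNX kidneys, all higher. Of all genes, 13.9% and 14.2% were called in these comparisons, so the counts are no result about the list. The median difference of the list was -0.13 in both. Nrp1, the neuropilin co-receptor of VEGF-A, averaged -0.24 ± 0.47 in HFD UNX and -1.18 ± 0.12 in LFD UNX kidneys (SD, n = 4 each), a difference of 0.94 (SE 0.19, limma adjusted p = 0.00665). In sham mice Nrp1 averaged -0.18 ± 0.21 in HFD sham (n = 3) and -0.93 ± 0.14 in LFD sham kidneys (n = 4), a difference of 0.75 (SE 0.21, limma adjusted p = 0.0308). Flt4, the lymphatic receptor VEGFR3, averaged -3.35 ± 1.23 in HFD UNX and -4.98 ± 0.23 in LFD UNX kidneys (SD, n = 4 each), a difference of 1.63 (SE 0.51, limma adjusted p = 0.0463). In sham mice Flt4 averaged -3.16 ± 1.06 in HFD sham (n = 3) and -4.79 ± 0.16 in LFD sham kidneys (SD, n = 4), and was not called. HFD UNX arrays ran from -4.63 to -2.30, the lowest being close to the LFD UNX range of -5.25 to -4.73. Flt4 was dim, and 3 of the 4 LFD UNX arrays read it above background.

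Of the angiopoietin receptors, Tie1 had the larger difference. This receptor kinase has no high-affinity ligand of its own and modulates Tie2. Its level was 1.38, 1.17, -0.30 and -0.07 in HFD UNX kidneys and 1.35, 0.95 and -0.17 in HFD sham kidneys. It was -0.72, -0.48, -0.55 and -0.76 in LFD UNX kidneys and -0.18, -0.56, -0.52 and -0.56 in LFD sham kidneys. HFD UNX arrays were all above LFD UNX arrays and HFD sham arrays all above LFD sham arrays, but the high-fat arrays fell into high values (HFD UNX 1 and 2, HFD sham 1 and 2) and values near those on chow (HFD UNX 3 and 4, HFD sham 3). Tie1 rose by 1.17 in HFD UNX against LFD UNX kidneys (SE 0.37, limma adjusted p = 0.0464), and its difference was 1.17 in HFD sham against LFD sham kidneys (SE 0.39, adjusted p = 0.0634).

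With only the high-fat arrays of slide 1, set against the same low-fat arrays of other slides, the Tie1 difference was 1.90 in HFD UNX against LFD UNX kidneys (adjusted p = 3.86e-05), and with only those of slide 2 it was 0.44 (adjusted p = 0.27). For HFD sham against LFD sham it was 1.81 with those of slide 1 (adjusted p = 0.000379, from 1 HFD sham array assumed to vary like the others) and 0.85 with those of slide 2 (adjusted p = 0.0364). With slides 1 and 2 as a fixed block the differences were 1.17 (adjusted p = 0.00187) in mice with 1 kidney and 1.38 (adjusted p = 0.00141) in sham mice, while with slide as a random block they were 1.17 (adjusted p = 0.297) and 1.31 (adjusted p = 0.214). Leaving out 1 array, the HFD UNX against LFD UNX difference ranged over 0.89 to 1.45. Its call held without HFD UNX 3, HFD UNX 4, HFD sham 1 or HFD sham 3 and was lost without any 1 of the other 11 arrays, with an adjusted p up to 0.138. The group means of Tie1 were 0.71 ± 0.79 in HFD sham, 0.54 ± 0.85 in HFD UNX, -0.46 ± 0.19 in LFD sham and -0.63 ± 0.14 in LFD UNX kidneys (SD). The 2 high-fat groups overlapped, and so did the 2 low-fat groups.

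Tek encodes Tie2, the receptor for the angiopoietins. Its level was -0.44, -0.52, -2.08 and -1.67 in HFD UNX kidneys and -0.98, -1.08 and -1.76 in HFD sham kidneys. On chow it was -1.46, -1.42, -1.49 and -1.71 in LFD UNX and -1.17, -1.42, -1.37 and -1.43 in LFD sham kidneys. The arrays that were high for Tie1 were again above the others, and the high-fat arrays spanned both sides of the low-fat ones. Differences were 0.35 (SE 0.31, adjusted p = 0.488) for HFD UNX against LFD UNX and 0.08 (SE 0.33, adjusted p = 0.909) for HFD sham against LFD sham. The means, from -1.18 ± 0.82 in HFD UNX through -1.27 ± 0.43 in HFD sham and -1.35 ± 0.12 in LFD sham to -1.52 ± 0.13 in LFD UNX kidneys (SD), all lay within the spread of the high-fat groups.

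Among the adhesion and surface proteins of endothelium, Cdh5 was called. It encodes VE-cadherin, which joins endothelial cells at adherens junctions. Its level was -0.38, -0.62, -0.53 and -0.17 in HFD UNX kidneys and -0.43, -0.11 and -0.55 in HFD sham kidneys. It was -0.96, -0.77, -0.91 and -1.10 in LFD UNX kidneys and -0.41, -0.63, -0.72 and -0.78 in LFD sham kidneys. All 4 HFD UNX arrays lay above all 4 LFD UNX arrays, while the sham groups overlapped. Cdh5 rose by 0.51 in HFD UNX against LFD UNX kidneys (SE 0.14, limma adjusted p = 0.0263), and differed by 0.27 in HFD sham against LFD sham kidneys (SE 0.15, adjusted p = 0.239). The difference in mice with 1 kidney was 0.44 with only the high-fat arrays of slide 1 (adjusted p = 0.0221) and 0.58 with only those of slide 2 (adjusted p = 0.0399), the low-fat arrays being the same. Its call was lost when slide was a random block (limma adjusted p = 0.367), and without HFD UNX 1, HFD UNX 4, LFD UNX 1, LFD UNX 3 or LFD UNX 4 (adjusted p up to 0.0845, difference 0.42 to 0.57). The order of the means was HFD sham (-0.36 ± 0.23), HFD UNX (-0.43 ± 0.19), LFD sham (-0.64 ± 0.16) and LFD UNX (-0.93 ± 0.13; SD), and each neighbouring pair overlapped.

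**Figure D3:**
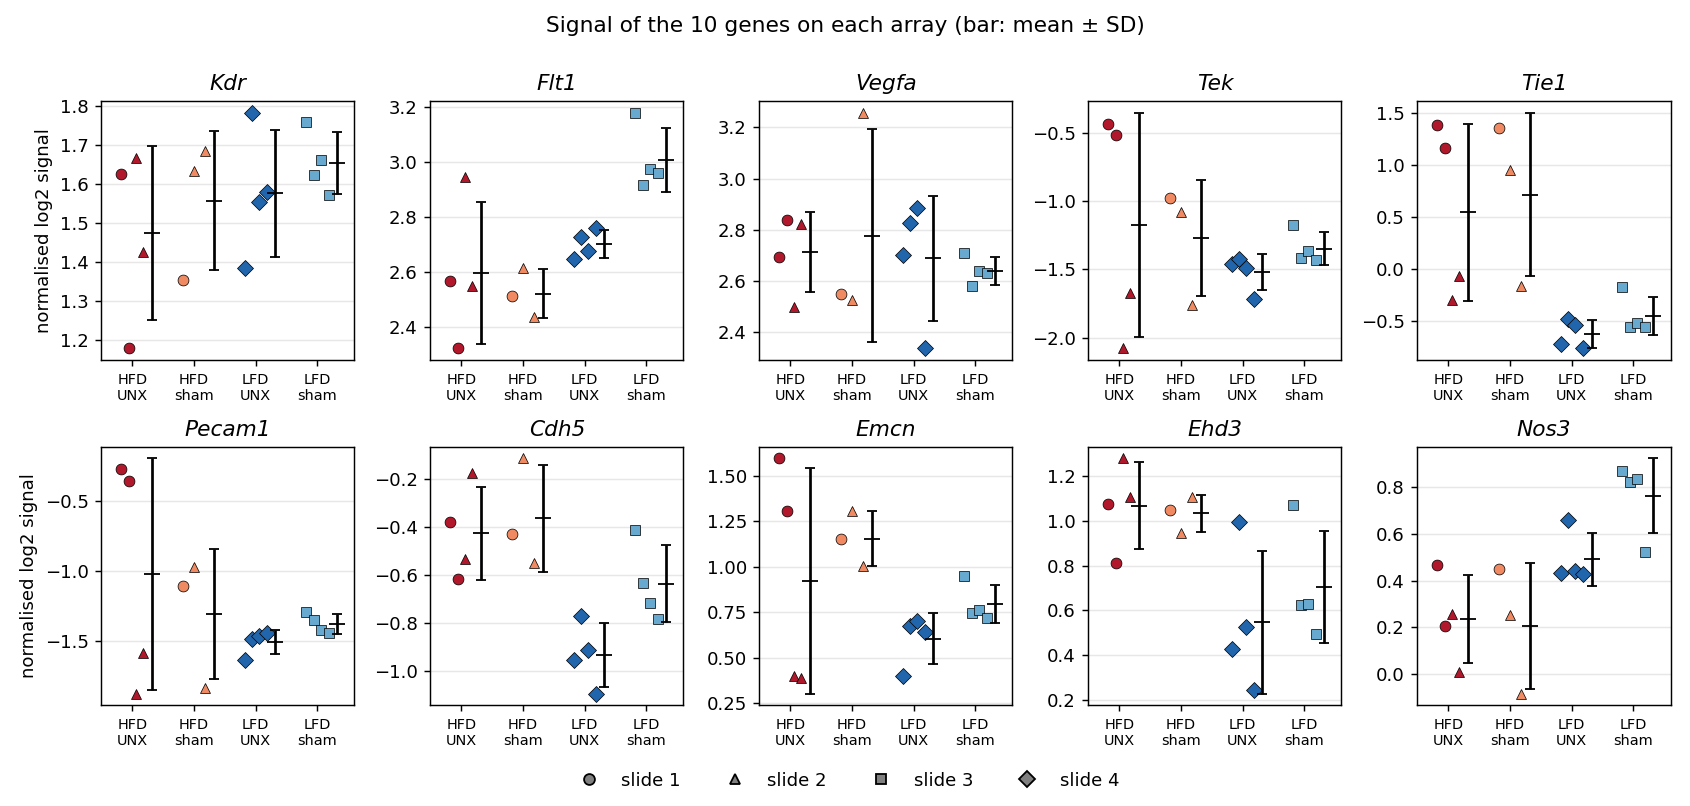
Normalised log2 signal (y axis, a separate scale for each gene) of the 10 genes on every array, by group, with marker shapes for the slide and bars for the mean and SD. For Tie1, Tek, Pecam1 and Emcn the HFD UNX arrays split by slide, with slide 1 above slide 2, while Cdh5 and Ehd3 lie higher on the high-fat arrays of both slides than on most low-fat arrays.

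Pecam1 encodes CD31, an adhesion molecule at endothelial junctions that platelets and some leukocytes also carry. Its level was -0.27, -0.36, -1.88 and -1.59 in HFD UNX kidneys and -1.11, -0.98 and -1.84 in HFD sham kidneys. It was -1.64, -1.49, -1.47 and -1.44 in LFD UNX and -1.29, -1.35, -1.43 and -1.44 in LFD sham kidneys. HFD UNX 1 and 2 were far above the low-fat arrays and HFD UNX 3 and HFD sham 3 below all of them. The differences were 0.48 (SE 0.31, adjusted p = 0.319) in HFD UNX against LFD UNX and 0.07 (SE 0.34, adjusted p = 0.915) in HFD sham against LFD sham kidneys. Means were -1.02 ± 0.83 in HFD UNX, -1.31 ± 0.46 in HFD sham, -1.38 ± 0.07 in LFD sham and -1.51 ± 0.09 in LFD UNX kidneys (SD), and each neighbouring pair overlapped.

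Emcn encodes endomucin, a sialomucin of capillary and venous endothelium. Its level was 1.60, 1.31, 0.40 and 0.39 in HFD UNX kidneys and 1.15, 1.31 and 1.00 in HFD sham kidneys. It was 0.40, 0.68, 0.70 and 0.64 in LFD UNX and 0.95, 0.74, 0.76 and 0.72 in LFD sham kidneys. All 3 HFD sham arrays lay above all 4 LFD sham arrays, whereas HFD UNX arrays split around the LFD UNX ones. Differences were 0.36 (SE 0.25, adjusted p = 0.359) in sham mice and 0.32 (SE 0.23, adjusted p = 0.380) in mice with 1 kidney. The means were in the order HFD sham (1.15 ± 0.15), HFD UNX (0.92 ± 0.62), LFD sham (0.79 ± 0.11) and LFD UNX (0.60 ± 0.14; SD). Arrays of the first pair overlapped, as did HFD UNX with both low-fat groups.

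Ehd3 encodes an endocytic trafficking protein that, in kidney, is a marker of glomerular endothelium. Its level was 1.08, 0.81, 1.28 and 1.11 in HFD UNX kidneys and 1.05, 0.95 and 1.11 in HFD sham kidneys. It was 0.43, 1.00, 0.52 and 0.24 in LFD UNX and 1.07, 0.63, 0.63 and 0.49 in LFD sham kidneys. On chow LFD UNX 2 and LFD sham 1 reached the high-fat range, and the other 6 low-fat arrays lay below every high-fat array. The difference was 0.52 (SE 0.17, limma adjusted p = 0.0546) in HFD UNX against LFD UNX and 0.33 (SE 0.18, adjusted p = 0.247) in HFD sham against LFD sham kidneys. With slides 1 and 2 as a fixed block the HFD UNX against LFD UNX difference was called (adjusted p = 0.0354), and with slide as a random block it was not (adjusted p = 0.467). Means were 1.07 ± 0.19 in HFD UNX, 1.03 ± 0.08 in HFD sham, 0.70 ± 0.25 in LFD sham and 0.55 ± 0.32 in LFD UNX kidneys (SD), and each neighbouring pair overlapped.

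Nos3 is the endothelial nitric oxide synthase. Its brighter probe read 0.47, 0.21, 0.26 and 0.01 in HFD UNX kidneys and 0.45, 0.25 and -0.08 in HFD sham kidneys. It read 0.43, 0.66, 0.44 and 0.43 in LFD UNX and 0.87, 0.82, 0.83 and 0.52 in LFD sham kidneys. All HFD sham arrays lay below all LFD sham arrays, and in mice with 1 kidney the diets overlapped through HFD UNX 1. Nos3 fell by 0.56 on the log2 scale in HFD sham against LFD sham kidneys (SE 0.15, limma adjusted p = 0.0279), and its difference was -0.26 in HFD UNX against LFD UNX kidneys (SE 0.14, adjusted p = 0.243). With only the high-fat arrays of slide 1 the sham difference was -0.31 (adjusted p = 0.178), and with only those of slide 2 it was -0.68 (adjusted p = 0.0085), the low-fat arrays being the same. The highest mean was that of LFD sham (0.76 ± 0.16), followed by LFD UNX (0.49 ± 0.11), HFD UNX (0.24 ± 0.19) and HFD sham (0.21 ± 0.27; SD), and neighbours overlapped. The call was lost when slide was a random block (limma adjusted p = 0.285), and without HFD sham 2, HFD sham 3, LFD sham 1, LFD sham 2 or LFD sham 3 (adjusted p up to 0.0841, difference -0.68 to -0.41).

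The second Nos3 probe read -0.67, -0.82, -1.93 and -2.02 in HFD UNX kidneys and -0.91, -1.31 and -2.03 in HFD sham kidneys. It read -1.66, -1.43, -1.62 and -1.63 in LFD UNX and -1.33, -1.34, -1.31 and -1.67 in LFD sham kidneys. Its high-fat arrays split like those of Tek and Pecam1, and it gave a difference of -0.01 (SE 0.32, adjusted p = 0.993) in HFD sham against LFD sham kidneys, so the lower Nos3 signal rests on the brighter probe. That probe has 1 spot per array, whereas the second has 10, and both are assigned to the same RefSeq transcript. The change of the second probe minus that of the first was 0.55 in sham mice (exact permutation p = 0.0286, Benjamini-Hochberg p = 0.0857 over 12 tests).

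In the nitric oxide signalling list (13 of 14 measured), 1 gene was called higher and 1 lower in HFD sham against LFD sham kidneys, where 13.9% of all genes were called. Here 12 of the 13 differences were below 0 (median -0.39). In HFD UNX against LFD UNX kidneys 1 gene was called higher and 0 lower, where 14.2% of all genes were called. There 8 of the 13 differences were below 0 (median -0.14). Nos2, the inducible synthase, rose by 0.96 in HFD sham against LFD sham (SE 0.16, limma adjusted p = 0.00283) and by 0.81 in HFD UNX against LFD UNX kidneys (SE 0.14, limma adjusted p = 0.00341). Pde5a, the phosphodiesterase that breaks down the cyclic GMP made in response to nitric oxide, averaged -0.94 ± 1.14 in HFD sham (n = 3) and 0.80 ± 0.45 in LFD sham kidneys (SD, n = 4), and fell by 1.75 on the log2 scale (SE 0.47, limma adjusted p = 0.026). In mice with 1 kidney Pde5a was not called, at 0.73 ± 0.79 in HFD UNX and 1.05 ± 0.08 in LFD UNX kidneys (SD, n = 4 each).

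Across the high-fat arrays, Tie1, Tek, Pecam1 and Emcn were called higher on slide 1 than on slide 2, and no other member was called (31% of all genes called, 14.6% higher and 16.4% lower). With group means allowed for, the slide differences were 1.26 (SE 0.22, limma adjusted p = 0.00157) for Tie1, 1.01 (adjusted p = 0.00328) for Tek, 0.97 (adjusted p = 0.00672) for Pecam1 and 0.63 (adjusted p = 0.0215) for Emcn. For Kdr (-0.21), Flt1 (-0.18), Ehd3 (-0.14), Cdh5 (-0.13), Vegfa (-0.07) and Nos3 (0.27) the adjusted p was 0.132 or above. HFD sham 2, on slide 2, lay above HFD sham 3, the other sham array of that slide, for all 4 of these genes.

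**Figure D4:**
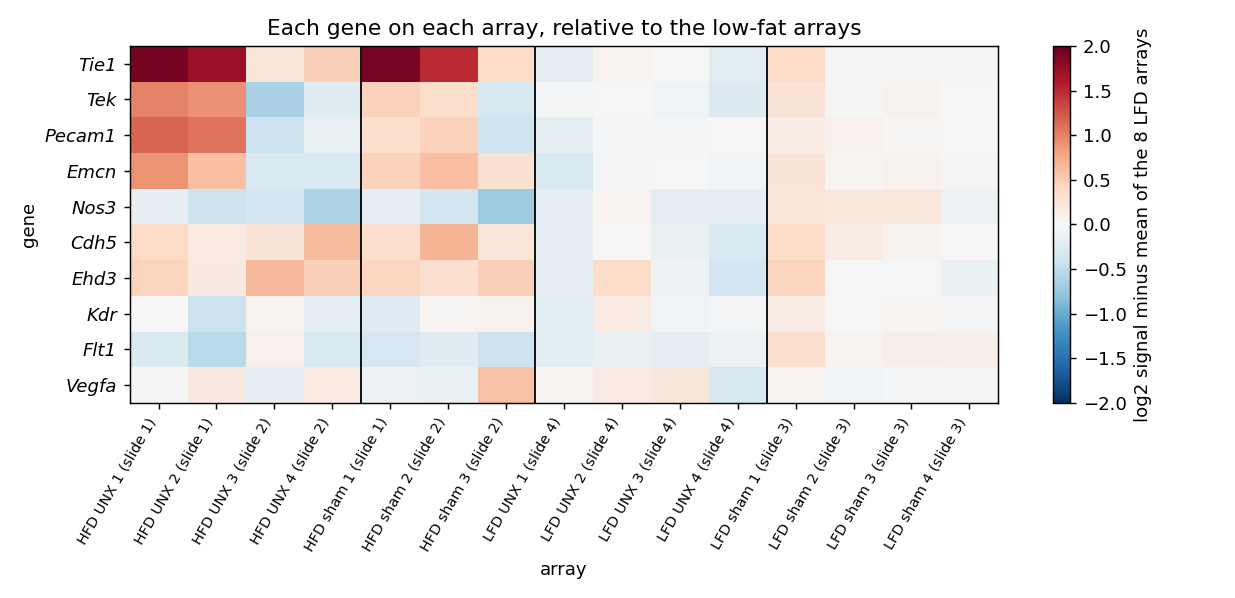
Level of each gene (rows) on each array (columns, by group and with the slide in brackets) minus the gene's mean over the 8 low-fat arrays, as a colour scale in log2 units from -2 to 2. Red cells of Tie1, Tek, Pecam1 and Emcn gather on HFD UNX 1 and 2 and HFD sham 1 and 2, while the low-fat columns are pale throughout.

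Mean levels of several gene lists, for vessel wall cells and for other cell types, followed the same split, and those of others did not. On HFD UNX 1 to 4 the mean level of the endothelial transcription factor list was -1.40, -1.53, -1.43 and -1.55. That of the nitric oxide list was -0.86, -0.91, -0.75 and -0.83. The proximal tubule list was higher on HFD UNX 3 and 4 (5.89 and 5.84) than on HFD UNX 1 and 2 (5.54 and 5.50). The mean level of the mural list (smooth muscle and pericyte markers, 10 of 10 measured and none at 0) was 0.85 and 0.73 on HFD UNX 1 and 2 and 0.04 and -0.06 on HFD UNX 3 and 4. On HFD sham 1, 2 and 3 it was 0.61, 0.66 and -0.09, so the arrays high for Tie1 were high here too. The summed linear signal of the same list, on the log2 scale, did not follow it: 5.27 to 5.91 in HFD UNX, 5.01 to 5.32 in HFD sham, 4.57 to 5.06 in LFD UNX and 5.06 to 5.21 in LFD sham kidneys. The mean level of the leukocyte and platelet list was 0.15 and -0.01 on HFD UNX 1 and 2 and -0.45 and -0.58 on HFD UNX 3 and 4, and -0.03, -0.17 and -0.58 on HFD sham 1, 2 and 3. That of the podocyte list was 0.02 and -0.18 on HFD UNX 1 and 2 and -0.55 and -0.38 on HFD UNX 3 and 4, and -0.09, -0.13 and -0.30 on HFD sham 1, 2 and 3. On LFD sham 1, 2, 3 and 4 it was -0.02, -0.22, -0.12 and -0.31, which overlaps the higher high-fat arrays. The summed podocyte signal, on the log2 scale, did not follow the split: it was 4.47, 4.27, 4.34 and 4.48 on HFD UNX 1 to 4. The mean level of the VEGF and angiopoietin pathway list was -1.04 and -0.95 on HFD UNX 1 and 2 and -1.55 and -1.70 on HFD UNX 3 and 4. The part of these cells in the result was not tested.

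After removal of group means, the mean of the 9 members other than Vegfa was most like Myh11 (Pearson r = 0.957 over 15 arrays), Notch4 (0.947), Spon1 (0.947), Ppp1r18 (0.944) and Acer2 (0.943). Myh11 is also on the mural list. Genes among those most like Vegfa, by its brighter probe, were Zbtb8a (0.923), Map3k21 (0.906), Mlxip (0.900) and Sp1 (0.889). These arrays share slides, so the values describe this set of arrays only.

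Other endothelial genes gave a mixed picture with diet as well. Of 23 measured genes on a list of further endothelial markers, 4 were called lower and 1 higher in HFD sham against LFD sham kidneys, where 13.9% of all genes were called. The median difference of the list was -0.01 (11 above 0 and 12 below). Thbd, the anticoagulant receptor thrombomodulin, averaged 0.23 ± 0.12 in HFD sham (n = 3) and 1.05 ± 0.09 in LFD sham kidneys (SD, n = 4), and fell by 0.83 on the log2 scale (SE 0.14, limma adjusted p = 0.00357). Mmrn2, an endothelial matrix protein, averaged 2.12 ± 0.16 in HFD sham and 2.95 ± 0.19 in LFD sham kidneys, and fell by 0.84 (SE 0.15, limma adjusted p = 0.00454). The adhesion molecule Icam2 fell by 0.55 (SE 0.16, limma adjusted p = 0.0378), and Ecscr, an endothelial surface protein, fell by 0.52 (SE 0.15, limma adjusted p = 0.0353). Selp, the P-selectin of activated endothelium and platelets, had a difference of 1.12 (SE 0.20, limma adjusted p = 0.00392), but it was dim: 3 of 3 HFD sham arrays and 1 of 4 LFD sham arrays read it above background. In HFD UNX against LFD UNX kidneys only Selp was called (1.01, SE 0.18, limma adjusted p = 0.0038), and Thbd differed by -0.37 (adjusted p = 0.0801) and Mmrn2 by -0.37 (adjusted p = 0.103). None of the 17 endothelial transcription factors was called in either diet comparison, where 13.9% (sham mice) and 14.2% (mice with 1 kidney) of all genes were called. Of 9 measured arterial, venous and lymphatic markers, the kinase Bmx was called, at 0.47 in HFD UNX against LFD UNX kidneys (SE 0.14, limma adjusted p = 0.043).

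**Figure D5:**
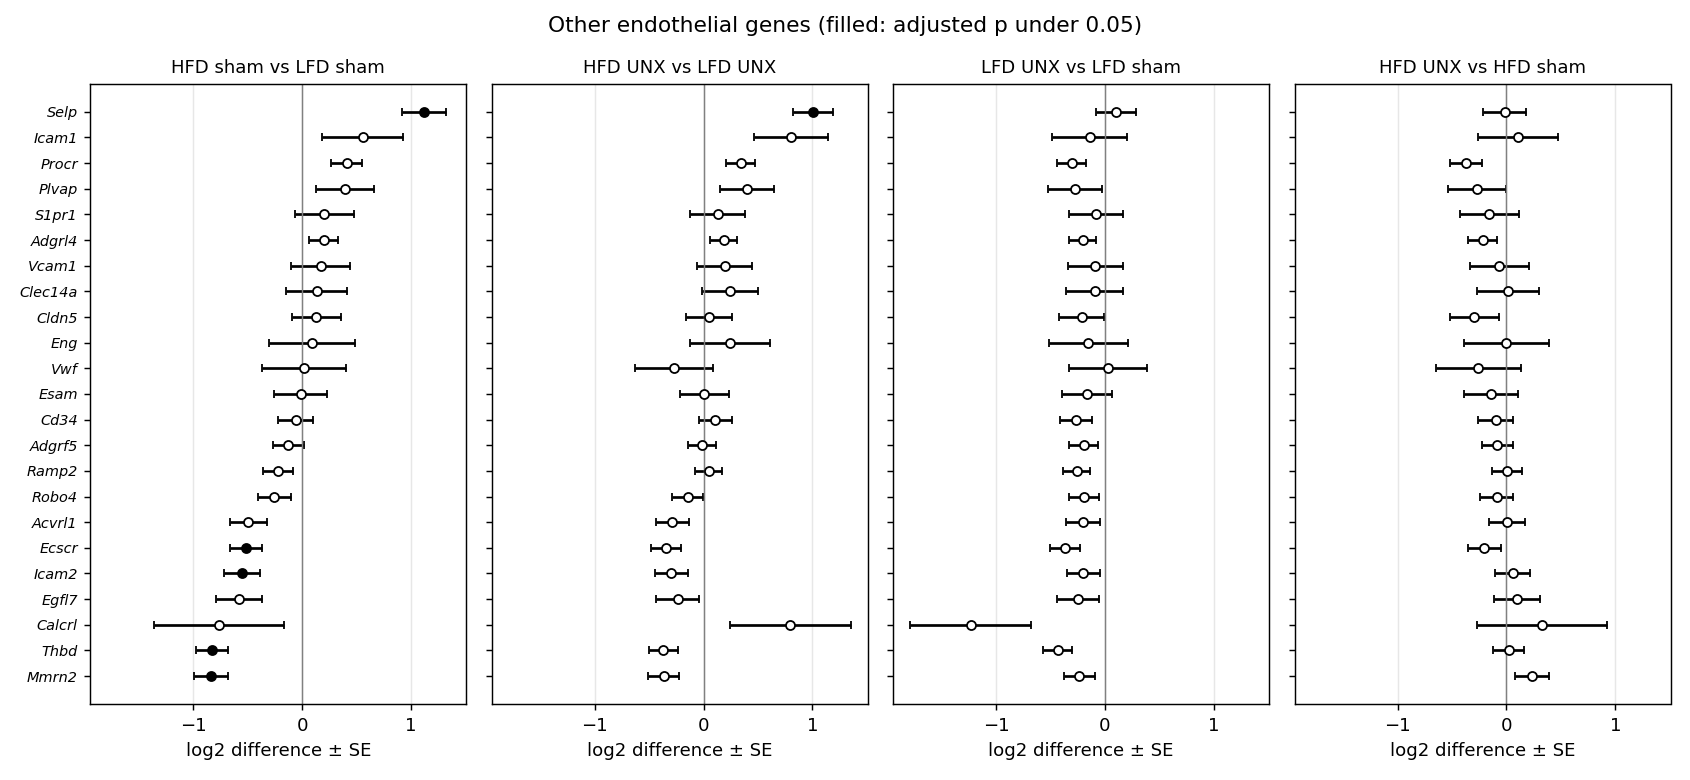
Log2 difference (x axis, first group minus second) with its SE for the 23 further endothelial genes in the 4 comparisons, filled where the adjusted p is under 0.05. In HFD sham against LFD sham kidneys Selp is filled on the right and Thbd, Mmrn2, Icam2 and Ecscr on the left, and in LFD UNX against LFD sham kidneys 21 of the 23 points lie left of 0 without any being filled.

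Some markers of other cells also differed between the diets, where 13.9% (sham mice) and 14.2% (mice with 1 kidney) of all genes were called. Of the adipocyte list (7 of 7 measured and none at 0), 7 of 7 genes were lower in HFD sham against LFD sham kidneys, with a median of -2.18, and Cfd, the adipose complement factor adipsin, fell by 2.90 (SE 0.84, limma adjusted p = 0.0363). Its summed signal, on the log2 scale, was 2.80 to 4.19 in HFD sham and 3.98 to 4.93 in LFD sham kidneys, and 3.18 to 4.36 in HFD UNX and 3.14 to 4.32 in LFD UNX kidneys. The sham groups overlapped through HFD sham 3, the array with the most adipocyte signal of its group. In HFD UNX against LFD UNX kidneys Lep, the fat hormone leptin, was called higher, but it was dim: 4 of 4 HFD UNX arrays and 0 of 4 LFD UNX arrays read it above background. Its HFD UNX arrays (-7.04 to -2.98) overlapped its LFD UNX arrays (-7.94 to -6.49). The rest of the list did not follow Lep: the list's median difference was 0.15, no other gene was called, and Cfd differed by -1.71. Of the leukocyte and platelet list (8 of 9 measured), the B-cell gene Cd79b was called higher in both diet comparisons (1.18 in sham mice and 1.15 in mice with 1 kidney) and the T-cell gene Cd3e in mice with 1 kidney (1.25). The summed signal of that list was 3.97 to 4.36 in HFD UNX and 4.18 to 4.36 in LFD UNX kidneys, and 3.95 to 4.55 in HFD sham and 4.15 to 4.65 in LFD sham kidneys. Among 6 loop and distal nephron genes Pvalb, a calcium-binding protein of the distal convoluted tubule, was called higher in both (1.15 in sham mice and 1.11 in mice with 1 kidney), and no gene of the 12 podocyte and 8 proximal tubule genes was called. The mural list had Tagln, a smooth muscle protein, lower in HFD sham against LFD sham (-1.11, limma adjusted p = 0.0106) and Mcam higher in HFD UNX against LFD UNX kidneys (1.14, limma adjusted p = 0.00722). The part of these cells in the endothelial differences was not tested.

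Vegfa is a target of the hypoxia-inducible factors. Of the 14 oxygen sensing genes measured, 1 was called higher and 2 lower in HFD sham against LFD sham kidneys, where 13.9% of all genes were called. In HFD UNX against LFD UNX kidneys 1 was called higher and 1 lower, where 14.2% of all genes were called. Egln3, a prolyl hydroxylase that marks the hypoxia-inducible factors for breakdown, rose by 0.95 in sham mice (SE 0.17, limma adjusted p = 0.00423) and by 0.92 in mice with 1 kidney (SE 0.16, limma adjusted p = 0.00279). Bnip3, a mitochondrial protein and hypoxia target, fell by 0.66 in sham mice (SE 0.12, limma adjusted p = 0.00357) and by 0.55 in mice with 1 kidney (SE 0.11, limma adjusted p = 0.0051). Adm, the vasodilator peptide adrenomedullin, fell by 0.77 in sham mice (SE 0.20, limma adjusted p = 0.0253).

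Uninephrectomy on chow left 9 of the 10 members lower and 1 higher, but none was called, where 0.00623% of all genes (1 gene) were called. At an unadjusted p under 0.05 there were 2 members and 519 of all genes. The members' median difference was -0.17, beside 0.01 over all genes. Flt1 had a difference of -0.30 (SE 0.13, limma unadjusted p = 0.0304, adjusted p = 0.9999), with all LFD UNX arrays below all LFD sham arrays, and Cdh5 one of -0.30 (SE 0.14, limma unadjusted p = 0.0485, adjusted p = 0.9999), with overlap. Emcn differed by -0.19 and its groups did not overlap either. How often these groups lie apart over all genes is not given, so neither case is a result about the members. In LFD UNX against LFD sham kidneys none of the other lists had a called gene: 21 of 23 further endothelial genes (median -0.20), 16 of 17 endothelial transcription factors (-0.18), 9 of 10 mural genes (-0.28), 11 of 12 podocyte genes (-0.13) and 7 of 7 adipocyte genes (-0.73) lay below 0, and 7 of 8 proximal tubule genes (0.13) and 6 of 6 loop and distal nephron genes (0.29) above 0. The remaining lists were less one-sided: 8 of 14 oxygen sensing genes lay above 0. Below 0 were 9 of 14 VEGF and angiopoietin genes and 10 of 13 nitric oxide genes. So were 7 of 9 arterial, venous and lymphatic genes and 6 of 8 leukocyte and platelet genes. Slide and group coincide here, and the LFD sham arrays also serve in the sham diet comparison.

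Uninephrectomy on the high-fat diet gave 0 called members (0% of all genes called, and 0 members and 747 genes at an unadjusted p under 0.05), and HFD UNX and HFD sham arrays overlapped for all 10 genes. The share of all genes with overlapping arrays is not given, so this overlap is no result about the 10 genes. The members' median difference was -0.02, beside 0.02 over all genes. The differences ran from -0.23 for Emcn (SE 0.25) to 0.28 for Pecam1 (SE 0.34; limma adjusted p = 0.9991 for both). Within slide 1, with 2 HFD UNX arrays and 1 HFD sham array, Pecam1 differed by 0.79 and Emcn by 0.30, and within slide 2, with 2 of each, by -0.33 and -0.76. The direction of both therefore changed between the slides. When the fit held only the high-fat arrays of slide 2, together with the low-fat arrays of other slides, Emcn was called (limma adjusted p = 0.044). In that fit 1.11% of all genes were called between HFD UNX and HFD sham.

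The interaction, the surgery difference on HFD minus that on LFD, called 0 members (0% of all genes called, and 0 members and 219 genes at an unadjusted p under 0.05). The members' median was 0.21, beside 0.02 over all genes. The lowest p among the members was that of Flt1, at 0.38 (SE 0.19, limma unadjusted p = 0.0608, adjusted p = 0.9996). No diet effect on a member was therefore shown to differ between sham mice and mice with 1 kidney, including the 4 called in 1 of the diet comparisons.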

How the data were processed

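Cy3-labelled kidney RNA (100 ng, per the labels' protocols) was read on 15 one-colour Agilent arrays of design 026655. The authors deposited spot intensity signals from Feature Extraction (version 10.7.3.1, per the file headers, or 10.7, per the submitters' processing notes); their deposited value table holds the same intensities, at 0.995 to 1.005 times the processed signal. Headers name build mm9. From each array's log2 processed signal, the 75th percentile of its own non-control probes was taken away. Control spots and marked spots (74 to 273 per array) were left out, no spot was saturated, and spots of a probe were averaged. The filter kept 28244 probes that were well above background on 3 or more arrays, and each gene was represented by its brightest probe (16055 genes). Names came from RefSeq accessions through a GRCm38.p6 table: 27234 of 39429 probes were named.

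Groups were compared with limma 3.58.1 (R 4.3.3, statmod 1.5.0), 1 mean per group over 15 arrays, two-sided, with Benjamini-Hochberg adjustment over all genes. The fit was tested on simulated data. The number of arrays limits the precision. The members and gene lists were chosen with earlier results of these data known. All 10 members are named, other list genes only if called (up to 4 per list and comparison), and the 5 genes most like the members, and the 5 most like Vegfa, by Pearson r, of which 1 is not reported here. Same-numbered arrays deviated together (r = 0.435, 0.122 and 0.331) only between HFD UNX and HFD sham, where numbers 1 and 3 share a slide and number 2 does not; with that block, only the member calls given in the text changed. Alternatives changed normalization, background, value source, filter, probe choice, slide and replicate blocks, arrays fitted and threshold, and left out each array. Those on a second probe, on single slides and on the block within the high-fat groups were added after seeing the data. The normexp alternative used the median spot signal.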

Additional observations from a re-analysis of the deposited data

Results flagged for a closer look

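In 3 of 30 sets of 4 arrays checked (10 genes, 3 groups of 4), 1 array stood far from the other 3 relative to the range of its group, where chance gives about 1 in 20. Tie1 was at -0.18 on LFD sham 1, with the other LFD sham arrays at -0.56 to -0.52. Nos3, by its brighter probe, was at 0.66 on LFD UNX 2, with the other LFD UNX arrays at 0.43 to 0.44, and at 0.52 on LFD sham 4, with the other LFD sham arrays at 0.82 to 0.87. The HFD sham group, with 3 arrays, was not checked.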

How the results depend on the processing

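Main counts of called members were 2 for HFD sham against LFD sham and 2 for HFD UNX against LFD UNX. In the same order they were 0 and 0 with normexp, 1 and 1 with the mean of all probes, 0 and 0 with slide as a random block, and 0 and 1 when only the groups compared were fitted. With the replicate block over all groups the sham count was 1 and the uninephrectomy count 2. With the replicate block within the high-fat groups they were 3 and 4, and 0 for HFD UNX against HFD sham. On high-fat arrays of slide 1 only, HFD UNX against LFD UNX had 5, where 48% of all genes were called. On slide 2 only it had 1, where 14.6% of all genes were called. There HFD UNX against HFD sham had 1, where 1.11% of all genes were called. Leaving out 1 array gave 0 to 3 and 0 to 2. For the other 3 comparisons, every other alternative gave 0. With the second probe Vegfa changed sign, to -0.759, in HFD sham against LFD sham (adjusted p = 0.0493). The cause of these changes was not tested. The 4 called differences kept their direction in all 120 alternative values and their call in 75. The 46 others changed sign in 104 of 1380 values. Of all genes, 2230 and 2278 were called between diets, against 167 and 319 with normexp, 14 and 26 with the random block, 4474 and 4101 with slides 1 and 2 as fixed terms, 4850 and 3596 without a filter, 3646 and 4418 with the block within the high-fat groups, 4838 and 7712 on slide 1, 3660 and 2339 on slide 2, 3498 and 3462 at 0.10, and 1181 and 1915 with only the groups compared. Leaving out 1 array took the sham count down to 1210 and the uninephrectomy count down to 1297. Diet cannot be told from scan day, and with 3 or 4 arrays per group small differences can be missed.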
